A study of Mus musculus with 4 samples.

Results

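The BCL2 family genes examined here are 10 regulators of the mitochondrial pathway of apoptosis, and every probe set named in the platform annotation with the symbol of one of them was taken singly. They comprised 29 probe sets of 9 genes among 45037 probe sets on the arrays. No probe set carried the symbol Bax in the annotation used, so this effector was not analysed here. Of the 29 probe sets, 22 of 8 genes had a mean log2 intensity over the 4 arrays above 7.23, the median of all probe sets, and were tested. The other 7 were the only probe set of Pmaip1, 3 of Bcl2l1 and 1 each of Bcl2, Bcl2l11 and Bak1. The tested probe set nearest the filter was Bcl2l11 1435449_at with a mean of 7.41, and the nearest below it was Pmaip1 1418203_at with 6.80.

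BCL2 family proteins decide whether the outer mitochondrial membrane is permeabilised and cytochrome c is released to activate caspases. Prosurvival proteins (Bcl2, Bcl2l1, also called BCL-XL, and Mcl1) hold the effectors Bax and Bak1 in check, and BH3-only proteins (Bcl2l11, or BIM, Bid, Bad, Bbc3, or PUMA, and Pmaip1, or NOXA) bind the prosurvival proteins or activate the effectors. In the mouse, hematopoietic stem and progenitor cells depend on Mcl1 for survival. Much of the control of this family acts on protein stability, cleavage or phosphorylation, which transcript levels do not show.

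Gene expression was measured on Affymetrix mouse arrays in sorted mouse bone marrow cells, with 1 array in each of 4 groups. The groups were Smo-deficient LSK, WT LSK, Smo-deficient MP and WT MP. LSK are Lin-ckit+Sca1+ cells, the fraction that holds stem cells and multipotent progenitors, and MP are Lin-ckit+Sca1- myeloid progenitors. Smo-deficient mice were Smo flox/flox, Mx1Cre+, and the mice called WT were Smo flox/flox, Mx1Cre-, so presence of the Cre transgene and loss of Smo, the hedgehog signal transducer Smoothened, cannot be told apart. Mx1-Cre is driven by an interferon-responsive promoter and is not restricted to hematopoietic cells. Mice of both genotypes received 3 intraperitoneal doses of polyI:C, an inducer of interferon, at 20 ug per g and were analysed 6 weeks later, so no group was free of polyI:C. Marrow of 4 mice per genotype, of both sexes, was pooled before the sort, and LSK and MP of a genotype came from the same pool. No age of the mice is named in the labels. The strain is labelled C57BL/6x129 for WT LSK, while the Smo-deficient LSK, WT MP and Smo-deficient MP arrays carry C57BL/6x130, C57BL/6x131 and C57BL/6x132. Since LSK and MP of a genotype came from 1 pool, the labels are not read as strain differences between those arrays, and whether strain differed between genotypes is not known.

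Across the whole table the arrays correlated with Pearson's r between 0.980 and 0.994, and their median intensities lay between 149.1 and 150.3. Their upper quartiles were 609.7 and 591.5 in Smo-deficient and WT LSK, against 543.1 and 563.9 in Smo-deficient and WT MP, so the upper part of the distribution was higher in LSK. The Smo probe set 1427049_s_at had log2 intensities of 6.13 in Smo-deficient LSK and 10.81 in WT LSK, and of 6.36 in Smo-deficient MP and 10.40 in WT MP, in the direction of the labels. On 1427048_at they were 6.96 and 10.02 in Smo-deficient and WT LSK, against 7.94 and 9.72 in Smo-deficient and WT MP. The genotype difference was smaller there, above all in MP, and the third probe set of Smo, 1442215_at, was dim on all arrays. Kit, which marks both populations, had log2 intensities of 12.31 to 12.65. Cd34 rose in LSK by 1.06, Flt3 rose by 1.39 and Mpo, the myeloperoxidase gene of myeloid progenitors, fell by 0.42 (limma adjusted p = 0.000465, 0.000586 and 0.000606). The Sca-1 gene Ly6a was not analysed here. The Actb control probe set at the 3' end exceeded that at the 5' end, on the log2 scale, by 1.53 and 1.55 in Smo-deficient and WT LSK, against 1.31 and 1.34 in Smo-deficient and WT MP. The mean log2 intensity of 12 poly-A spike probe sets was 8.58 and 8.78 in Smo-deficient and WT LSK, against 8.12 and 8.37 in Smo-deficient and WT MP. For Gapdh the 3' excess was 1.78 and 1.57 in Smo-deficient and WT LSK, against 1.60 and 1.59 in Smo-deficient and WT MP, and it did not follow the population. The part of the Actb measure and of the spikes, which did, in the differences between LSK and MP was not tested.

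The promoters of Mcl1 and Bcl2, with some probe sets that rose in LSK, and of Bid, with some that fell there, are shown. They give the sequence around the start of genes whose passing probe sets moved in opposite directions. RefSeq (GRCm38.p6) gave 15 promoters for 9 of the 10 genes, each from 250 bases before to 50 bases after an annotated start. The 3 genes shown have 1 promoter each, printed 5′ to 3′ along the gene, with the GC box GGGCGG or its complement CCGCCC in capitals.
Mcl1 promoter, chr3:95658471-95658770 (GRCm38.p6, plus strand): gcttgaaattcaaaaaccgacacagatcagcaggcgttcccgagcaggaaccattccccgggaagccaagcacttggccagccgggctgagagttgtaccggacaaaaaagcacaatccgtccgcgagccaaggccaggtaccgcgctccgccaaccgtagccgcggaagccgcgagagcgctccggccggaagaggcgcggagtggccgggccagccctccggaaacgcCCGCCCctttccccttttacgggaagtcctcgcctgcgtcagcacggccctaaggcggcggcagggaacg
Bcl2 promoter, chr1:106714241-106714540 (GRCm38.p6, minus strand): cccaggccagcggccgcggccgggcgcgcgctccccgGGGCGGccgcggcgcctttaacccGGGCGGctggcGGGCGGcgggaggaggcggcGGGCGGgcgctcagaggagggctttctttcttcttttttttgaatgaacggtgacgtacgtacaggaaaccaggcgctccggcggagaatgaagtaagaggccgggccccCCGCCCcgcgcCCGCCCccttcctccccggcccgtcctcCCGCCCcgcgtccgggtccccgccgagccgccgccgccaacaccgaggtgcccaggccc
Bid promoter, chr6:120916775-120917074 (GRCm38.p6, minus strand): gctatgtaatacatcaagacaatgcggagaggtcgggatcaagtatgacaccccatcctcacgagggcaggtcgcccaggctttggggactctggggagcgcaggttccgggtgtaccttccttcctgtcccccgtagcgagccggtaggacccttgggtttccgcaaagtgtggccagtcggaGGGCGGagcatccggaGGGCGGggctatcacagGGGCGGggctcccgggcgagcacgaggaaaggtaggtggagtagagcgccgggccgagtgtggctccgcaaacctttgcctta
The GC box, searched on both strands, occurred 1 time in the Mcl1, 7 times in the Bcl2 and 3 times in the Bid promoter. It was thus found in promoters of both directions. It was present in 10 of the 15 promoters of the family and in 35.7% of 32851 promoters of the same length. The CCAAT box, CCAAT on either strand, was in 4 of the 15 and in 37.4% of all promoters. Neither the STAT motif TTCNNNGAA nor the CRE motif TGACGTCA was in any of the 15 windows, and these were found in 8.3% and 1.79% of all promoters. These are matches of letters within the window, and binding was not measured.

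Probe sets of the prosurvival genes Mcl1, Bcl2 and Bcl2l1 rose in LSK against MP, though only some of those of Bcl2, and probe sets of Bid fell. Of the 22 tested probe sets, 8 rose in LSK and 2 fell by limma with the pool as a block and Benjamini-Hochberg adjusted p under 0.05. Over all 22518 tested probe sets, 15.1% rose and 7.19% fell, 22.3% together. The 8 that rose were 5 of 6 probe sets of Mcl1, 2 of 4 of Bcl2 and the only tested one of Bcl2l1, and both that fell belonged to Bid. All 10 had the same direction in the Smo-deficient and WT pools, which is no separate check, since these pools gave the calls. None reached a mean difference of 2-fold, which 2.98% of all tested probe sets did upward and 0.933% downward with a passing adjusted p. The median LSK minus MP difference was 0.07 on the log2 scale over the 22 probe sets and -0.00 over all tested ones. Probe sets of a gene read the same transcripts and are not independent, so the 10 calls stand for 4 genes. Without the pool as a block, none of the 10 passed with limma (adjusted p from 0.0526 to 0.177, with 10 of the 22 at an unadjusted p under 0.05). The fit rests on 2 pools of different genotype, and the variation among mice of 1 genotype does not enter its p-values. In bulk samples of this kind, more cells with a transcript and more of it per cell cannot be told apart.

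**Figure D1:**
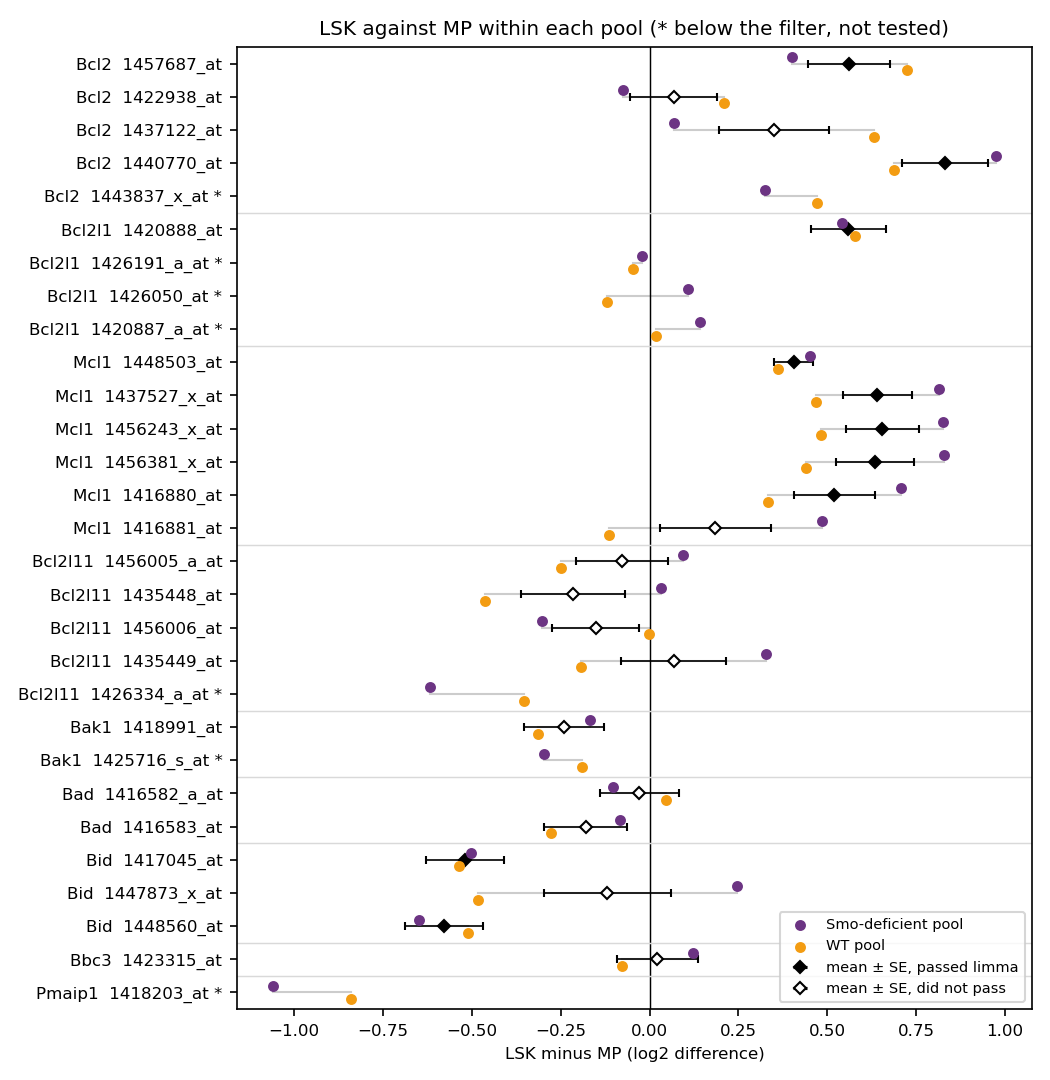
LSK minus MP difference (log2) of each of the 29 BCL2 family probe sets within the Smo-deficient pool and the WT pool, with the mean ± SE of limma for the 22 tested ones (filled where it passed). The Mcl1 and Bcl2 probe sets and the tested one of Bcl2l1 lie mostly right of 0. Of 3 Bid probe sets, 2 lie left of 0 in both pools.

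Mcl1, a short-lived prosurvival protein, had the most probe sets that rose. On 1448503_at its log2 intensity was 13.86 in Smo-deficient LSK and 13.74 in WT LSK, against 13.41 in Smo-deficient MP and 13.37 in WT MP. Both LSK arrays were above both MP arrays, with a mean difference of 0.41 ± 0.055 (SE, 2 pools, limma adjusted p = 0.00379). On 1456243_x_at the values were 12.80 and 12.44 in Smo-deficient and WT LSK, against 11.97 and 11.96 in Smo-deficient and WT MP, a difference of 0.66 ± 0.10 or 1.58-fold (limma adjusted p = 0.00627). The probe sets 1437527_x_at, 1456381_x_at and 1416880_at rose by 0.64, 0.63 and 0.52, and the values of LSK and MP did not overlap on any of them. Such separation is no separate check, since these values gave the calls, and its share over all probe sets was not counted. The same holds for the genes below. The exception was 1416881_at, with 10.98 in Smo-deficient LSK and 10.77 in WT LSK, against 10.50 in Smo-deficient MP and 10.88 in WT MP. Here the WT pair ran the other way, and the mean difference of 0.19 did not pass (limma adjusted p = 0.435).

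Bcl2, the founding prosurvival member, rose on 2 of its 4 tested probe sets. On 1440770_at the log2 intensity was 9.27 in Smo-deficient LSK and 8.46 in WT LSK, against 8.30 in Smo-deficient MP and 7.78 in WT MP. All LSK values were higher than the MP values, and the mean difference of 0.83 ± 0.12 (SE, limma adjusted p = 0.0050), or 1.78-fold, was the largest rise in the family. On 1457687_at the values were 11.60 and 11.51 in Smo-deficient and WT LSK, against 11.20 and 10.78 in Smo-deficient and WT MP, a rise of 0.56 ± 0.12 (limma adjusted p = 0.0165). On 1437122_at the mean difference was 0.35, but it was 0.07 in the Smo-deficient pool and 0.63 in the WT pool, and it did not pass (limma adjusted p = 0.159). On 1422938_at log2 intensities were 9.27 and 9.29 in Smo-deficient and WT LSK, against 9.34 and 9.08 in Smo-deficient and WT MP, so that LSK and MP overlapped (mean difference 0.07, limma adjusted p = 0.731). The 4 probe sets of Bcl2 thus did not give 1 answer. The fifth, 1443837_x_at, was below the filter and had a mean difference of 0.40.

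Bcl2l1, which encodes BCL-XL and protects maturing erythroid cells in the mouse, was read by 1 probe set above the filter. On 1420888_at its log2 values were 10.97 in Smo-deficient LSK and 10.84 in WT LSK, against 10.43 in Smo-deficient MP and 10.26 in WT MP. LSK exceeded MP in both pools by nearly the same amount, 0.54 in the Smo-deficient pool and 0.58 in the WT pool, and the mean of 0.56 ± 0.11 (SE) passed (limma adjusted p = 0.0125). Its 3 dim probe sets, 1426191_a_at, 1426050_at and 1420887_a_at, had mean differences from -0.03 to 0.08.

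Of the effectors, Bak1, which forms pores in the outer mitochondrial membrane, was measured at 8.88 and 8.96 in Smo-deficient and WT LSK, against 9.05 and 9.28 in Smo-deficient and WT MP on 1418991_at. Both LSK values were below both MP values, but the difference of -0.24 ± 0.11 (SE) did not pass (limma adjusted p = 0.180). The dim probe set 1425716_s_at differed by -0.24 as well and was not tested.

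Bid, which caspase-8 cleaves to link death receptors with mitochondria, fell in LSK on 2 of 3 probe sets. On 1417045_at the log2 intensity was 9.82 in Smo-deficient LSK and 9.83 in WT LSK, against 10.32 in Smo-deficient MP and 10.37 in WT MP. The values of each population were nearly equal between genotypes and did not overlap between populations, with a mean difference of -0.52 ± 0.11 (SE, limma adjusted p = 0.0187). On 1448560_at they were 7.29 and 7.53 in Smo-deficient and WT LSK, against 7.94 and 8.04 in Smo-deficient and WT MP, a difference of -0.58 ± 0.11 (limma adjusted p = 0.0130). On 1447873_x_at they were 8.29 and 7.82 in Smo-deficient and WT LSK, against 8.04 and 8.30 in Smo-deficient and WT MP. LSK and MP overlapped there, and the mean difference of -0.12 did not pass (limma adjusted p = 0.673).

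The other BH3-only genes did not pass between LSK and MP. Bcl2l11, whose product BIM acts in cytokine withdrawal, had mean differences from -0.22 to 0.07 on 4 tested probe sets, with limma adjusted p from 0.336 to 0.775. On its brightest probe set, 1456005_a_at, log2 intensities were 10.34 and 9.86 in Smo-deficient and WT LSK, against 10.24 and 10.11 in Smo-deficient and WT MP, so that both MP values lay between those of LSK. Bad, which growth factor signalling inactivates by phosphorylation, was at 10.31 and 10.32 in Smo-deficient and WT LSK, against 10.41 and 10.28 in Smo-deficient and WT MP on 1416582_a_at. The difference was -0.03 (limma adjusted p = 0.879), and on 1416583_at it was -0.18 (0.313). Bbc3, which encodes the p53-induced protein PUMA, was at 8.64 and 8.35 in Smo-deficient and WT LSK, against 8.52 and 8.43 in Smo-deficient and WT MP, with the MP values again between those of LSK (0.02, limma adjusted p = 0.909).

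Pmaip1, which encodes NOXA, a partner of Mcl1, was dim. On its only probe set, 1418203_at, log2 intensity was 6.26 in Smo-deficient LSK and 6.38 in WT LSK, against 7.32 in Smo-deficient MP and 7.23 in WT MP. The LSK values were about 1 log2 unit below those of MP in both pools (-1.06 and -0.84 in the Smo-deficient and WT pools), and the MP values lay at the level of the filter. It was not tested in the filtered fit. In the fit of all 45037 probe sets it passed (-0.95, limma adjusted p = 0.00239), as did the dim Bcl2l11 probe set 1426334_a_at (-0.49, 0.0338), and background at such levels limits the size of both differences.

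**Figure D2:**
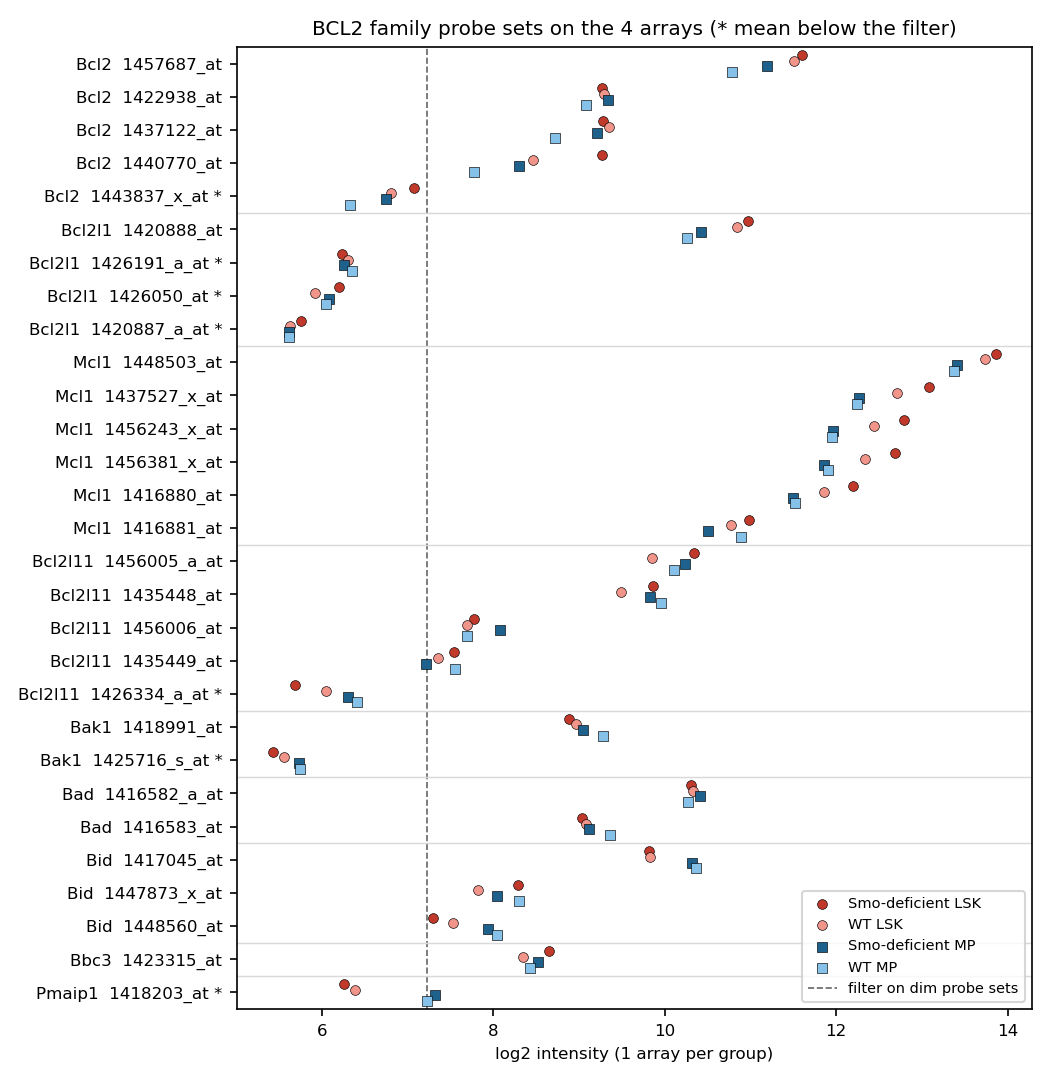
Log2 intensity of each BCL2 family probe set on the 4 arrays, 1 point per array, with a dashed line at the filter level of 7.23. The points of Mcl1 1448503_at lie between 13.37 and 13.86, and those of Pmaip1 lie left of the line in LSK and near it in MP.

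Loss of Smo was accompanied by small differences in this family. In LSK, 0 of the 22 probe sets past the filter differed 2-fold between Smo-deficient and WT cells, where 0.822% of all 22518 probe sets did. In MP 0 of 22 did (0.639% of all). At 1.5-fold, 1 of 22 was past the fold in LSK (3.94% of all) and 0 of 22 in MP (4.99% of all). The median difference of the 22 was 0.15 in LSK, against -0.02 over all probe sets past the filter, and 0.02 in MP, against -0.05. In LSK 15 of the 22 were above 0 (46.7% of all) and in MP 12 were (40.3% of all). With 1 pool per genotype no difference between genotypes has a replicate check or a p-value.

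The probe set past 1.5-fold was Bcl2 1440770_at, 0.81 higher in Smo-deficient than in WT LSK, or 1.75-fold. The other tested Bcl2 probe sets differed by -0.07 to 0.09 in LSK, so the difference was not shared by them. In MP the 4 tested Bcl2 probe sets were all higher in Smo-deficient cells, by 0.26 to 0.52. The 6 probe sets of Mcl1 were all higher in Smo-deficient LSK, by 0.13 to 0.37, whereas in MP they differed by -0.39 to 0.04. For Bcl2l1 1420888_at the differences were 0.13 in LSK and 0.16 in MP. The prosurvival genes were thus not uniform, with Mcl1 higher on every probe set in LSK and Bcl2 higher on every one in MP.

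Among the proapoptotic genes, Bcl2l11 was higher in Smo-deficient LSK on all 4 tested probe sets, by 0.09 to 0.48, with the highest value on 1456005_a_at. In MP its tested probe sets differed by -0.34 to 0.39, 2 in each direction. The difference of Bbc3 was 0.30 in LSK and 0.09 in MP, and that of Bak1 1418991_at was -0.08 in LSK and -0.23 in MP. The Bad probe sets differed by -0.02 and -0.05 in LSK and by 0.13 and -0.24 in MP, and Pmaip1 by -0.13 in LSK and 0.09 in MP. The Bid probe sets that fell in LSK against MP, 1417045_at and 1448560_at, differed between genotypes by -0.01 and -0.24 in LSK. The third, 1447873_x_at, differed by 0.47 there.

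**Figure D3:**
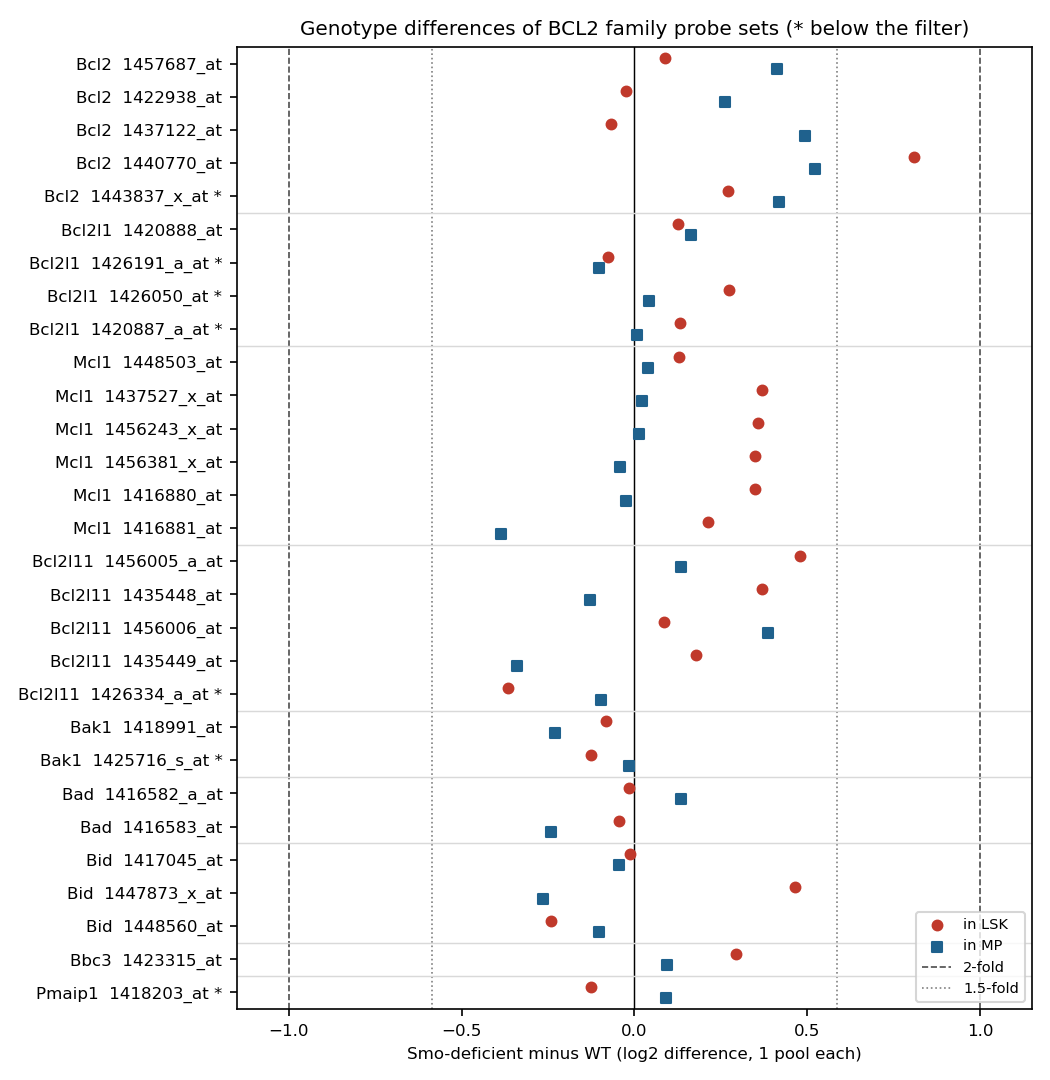
Smo-deficient minus WT difference (log2) of each BCL2 family probe set in LSK and in MP, with dashed lines at 2-fold and dotted lines at 1.5-fold. All points lie inside the 2-fold lines, and Bcl2 1440770_at in LSK, at 0.81, is the one outside the 1.5-fold lines.

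Markers of maturing cells and of progenitors differed between genotypes, without a test. Flt3, a receptor of multipotent and lymphoid progenitors, was higher in Smo-deficient cells by 1.21 in LSK and 0.95 in MP, and Fcgr3, an IgG receptor of granulocyte and monocyte progenitors, by 1.27 and 1.09. All 9 measured neutrophil markers were higher in Smo-deficient LSK, Mmp8 and Mmp9 by 1.25 and 1.13, with summed intensities of 132800 in Smo-deficient LSK and 82390 in WT LSK, and of 115600 in Smo-deficient MP and 100900 in WT MP. All 8 B cell markers past the filter were also higher in Smo-deficient LSK, Blnk by 1.18, with summed intensities of 3676 in Smo-deficient LSK and 2431 in WT LSK over 9 measured genes, and of 2846 in Smo-deficient MP and 2409 in WT MP. Of 8 macrophage markers past the filter 7 were higher in Smo-deficient LSK and 3 in Smo-deficient MP. Their sums over 9 genes were 3676 in Smo-deficient LSK and 2415 in WT LSK, and 3296 in Smo-deficient MP and 3059 in WT MP. In MP, all 9 neutrophil and 6 of the 8 B cell markers were higher in Smo-deficient cells. Of all probe sets past the filter, 46.7% were higher in Smo-deficient LSK and 40.3% in Smo-deficient MP. The 5 measured mature erythroid markers summed to 11160 in Smo-deficient LSK and 7137 in WT LSK, and to 10700 in Smo-deficient MP and 11590 in WT MP. Of 4 past the filter, 4 were higher in Smo-deficient LSK and 2 in Smo-deficient MP. Rhd alone had intensities of 3136 in Smo-deficient MP and 4965 in WT MP. The 7 measured T and NK cell markers summed to 6378 in Smo-deficient LSK and 5990 in WT LSK, and to 6444 in Smo-deficient MP and 5047 in WT MP. Of 4 T and NK cell markers past the filter, 3 were higher in Smo-deficient LSK and 3 in Smo-deficient MP. Nkg7 made up most of these sums, with intensities of 5092 in Smo-deficient MP and 3716 in WT MP. The part of such cells and progenitors in the genotype differences of the BCL2 family was not tested. Between populations, 7.19% of all tested probe sets fell in LSK and 15.1% rose. Of 5 mast cell and basophil markers past the filter, 4 fell in LSK and 1, Gata2, rose. Their sums over 6 measured genes were 9136 and 7874 in Smo-deficient and WT LSK, against 13010 and 10280 in Smo-deficient and WT MP, and their part in the differences between LSK and MP was not tested either.

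The difference between genotypes was not the same in LSK and MP for every probe set. The difference of differences, the genotype difference in LSK minus that in MP, passed 2-fold for 0 of the 22 probe sets (0.608% of all) and 1.5-fold for 2 (4.18% of all). These were Bid 1447873_x_at at 0.73 and Mcl1 1416881_at at 0.60. The 6 Mcl1 probe sets all had positive values, from 0.09 to 0.60, while 3 of 4 tested Bcl2 probe sets had negative ones, from -0.56 to -0.28, and 1440770_at had 0.29. With 1 array per group these values could not be tested.

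The other genes of the pathway were read on the brightest single-gene probe set of each. Of other BCL2 family genes, 8 of 11 measured were past the filter, 1 rose in LSK and 0 fell, with a median difference of -0.04. Among all tested probe sets of the arrays, 15.1% rose and 7.19% fell. Over all 11 tested probe sets of these genes, 1 rose and 1 fell, Bcl2l13 1424406_at (-0.48, limma adjusted p = 0.0273). The gene that rose was Bnip3, a hypoxia-induced mitophagy receptor (0.41 ± 0.11 SE, limma adjusted p = 0.0346). The prosurvival Bcl2l2 differed by 0.04, the BAX-like Bok by 0.41 (limma adjusted p = 0.0614) and the BH3-only genes Bik and Hrk by -0.33 and -0.10, none of which passed. Bmf, another BH3-only gene, was below the filter.

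Genes of the apoptosome and caspase list passed in both directions. Of 17 genes of the apoptosome, the caspases and their inhibitors, 3 rose in LSK, 3 fell and 11 did not pass, with a median of -0.06, while 15.1% of all tested probe sets rose and 7.19% fell. Over all 30 tested probe sets of these genes, 4 rose and 7 fell. Htra2, a mitochondrial protease that can be released to antagonise inhibitors of apoptosis, fell most, by 0.94 on the log2 scale (SE 0.10, limma adjusted p = 0.00135). Its log2 intensity was 10.70 in Smo-deficient LSK and 11.37 in WT LSK, against 11.70 in Smo-deficient MP and 12.24 in WT MP, lower in LSK in both pools. The mitochondrial nuclease gene Endog fell by 0.52 and Cycs, which encodes cytochrome c, fell by 0.20 (limma adjusted p = 0.0187 and 0.0233). Xiap, an inhibitor of caspases, rose by 0.59 on 1437533_at (limma adjusted p = 0.0102) and the initiator caspase gene Casp8 by 0.46 (0.0173), along with Casp2. The other tested probe sets of Xiap differed by 0.02 (1450232_at) and 1.45 (1456088_at). Apaf1, the scaffold of the apoptosome, differed by -0.06, Casp9 by -0.00 and Diablo by -0.24, and none of them passed.

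Of 8 tested death receptor pathway genes, 5 rose in LSK and 0 fell, where 15.1% and 7.19% of all tested probe sets did. The median difference was 0.48, against -0.00 over all tested probe sets. Counting all 14 tested probe sets of these genes, 7 rose and 0 fell, with a median of 0.36. Tnfsf10, which encodes the ligand TRAIL, rose by 1.18 ± 0.15 (SE, limma adjusted p = 0.00345), with log2 intensities of 9.59 in Smo-deficient LSK and 8.72 in WT LSK, against 8.13 in Smo-deficient MP and 7.83 in WT MP. Its other tested probe sets, 1420412_at and 1459913_at, rose by 0.68 and 0.81. Other tested probe sets of Tnfrsf1b (1448951_at, -0.24, limma adjusted p = 0.252) and Cflar (1449317_at, 0.26, limma adjusted p = 0.137) did not pass. Ripk3, a kinase of necroptosis, rose by 0.59, Cflar, which encodes the caspase-8 inhibitor FLIP, by 0.53, and the TNF receptor gene Tnfrsf1b by 0.50 (limma adjusted p = 0.0085, 0.0187 and 0.0236). The members that rose thus include a ligand, receptors and an inhibitor. Fas, a death receptor, was below the filter, with log2 intensities from 5.09 to 5.30.

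Among 23 tested regulators of the family, 8 rose in LSK, 2 fell and 13 did not pass, beside 15.1% and 7.19% of all tested probe sets that rose and fell, with a median of 0.21. Counting all 60 tested probe sets of these regulators, 15 rose and 4 fell, with a median of 0.19. Dynll2, a dynein light chain that holds Bmf at the cytoskeleton, rose by 1.17 on 1418258_s_at (limma adjusted p = 0.000727) but differed by 0.02 on 1418371_at. The cell cycle inhibitor gene Cdkn1a rose by 1.04 and the kinase genes Pim2 and Pim1, whose products phosphorylate Bad, by 0.90 and 0.85 (limma adjusted p = 0.00285, 0.00458 and 0.00637). Mdm2, which targets p53 for degradation, differed by 0.39 without passing (limma adjusted p = 0.0788), and Trp53 was not analysed here. Of the p53 target genes Cdkn1a, Bbc3 and Pmaip1, Cdkn1a thus rose, while Bbc3 did not pass and the dim Pmaip1 was lower in LSK. Across the 4 lists no gene past the filter differed 2-fold between genotypes in LSK or in MP on the probe set that represents it. Without the pool as a block, 0 of the 8, 0 of the 17, 0 of the 8 and 3 of the 23 genes passed with limma in the order given.

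**Figure D4:**
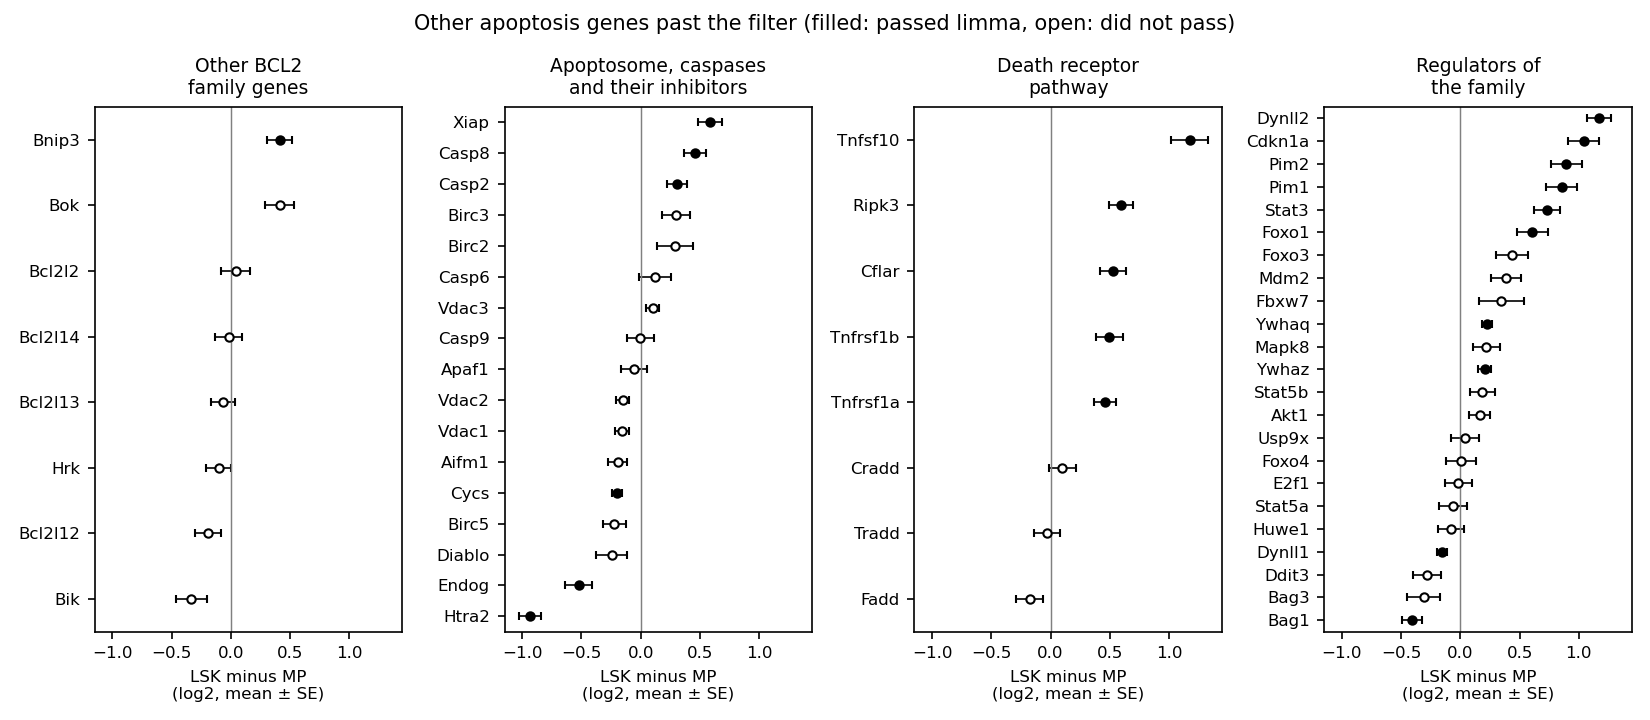
Mean LSK minus MP difference (log2, ± SE of limma, 2 pools) of other apoptosis genes past the filter, in 4 lists, filled where it passed. Of the 8 death receptor pathway genes the 5 that passed lie right of 0, and Htra2, at -0.94, is the gene farthest left.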

How the data were processed

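The intensity values of the 4 arrays, deposited by the authors in 1 table, come from RMA per the submitters' processing notes, with no version named. RMA corrects background, normalizes between arrays and summarises probes into probe sets. The values run on a linear scale, so log2 was taken without a pseudocount. RMA normalizes by quantiles, which can remove a shift common to most genes, but the deposited distributions were not fully equal. The 64 control probe sets were left out of tests. Gene symbols came from the platform annotation, which named 34945 of 45037 probe sets with 1 gene. All 29 BCL2 family probe sets matched RefSeq by gene identifier.

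Probe sets with a mean above the 50th percentile (22518) were tested for LSK against MP with limma 3.58.1 in R 4.3.3 (lmFit, eBayes with a trend, two-sided), with genotype (and so pool) as a block: LSK and MP of a genotype were sorted from the same pooled marrow. This leaves 1 residual degree of freedom before moderation. Adjusted p under 0.05 over all 22518 counted as passing. Genotype differences were counted at 2-fold, without a test. The fit was tested on simulated data with independent noise and no difference between pools, so that test does not bear on the block. Alternatives were quantile normalization, cyclic loess, other filters, no trend, no block, each pool alone and a 1.5-fold threshold. All members were named. From each gene list of the pathway, at most 4 genes with the largest passing differences were named, with 15 genes in any case, and those 2-fold between genotypes. Members and lists were chosen with earlier results of these data known. Arrays have no sequencing depth, and their number limits the precision.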

Additional observations from a re-analysis of the deposited data

Results flagged for a closer look

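For 11 of the 22 tested probe sets the direction of a difference was not the same in the groups set side by side, and none of these contrasts could be tested with 1 array per group. The genotype difference had opposite signs in LSK and MP for 9 probe sets. LSK minus MP had opposite signs in the Smo-deficient and WT pools for 8, with 6 in both counts. Opposite signs were not counted over all probe sets, so whether they are commoner in this family is not known. Some rest on genotype differences near 0, as for Bcl2 1422938_at (-0.02) and Bad 1416582_a_at (-0.02) in LSK and Mcl1 1416880_at (-0.03) in MP. The difference of differences (genotype difference in LSK minus that in MP) was -0.28 for Bcl2 1422938_at and -0.56 for 1437122_at. For Mcl1 it was 0.39 on 1456381_x_at, 0.37 on 1416880_at and 0.60 on 1416881_at. For Bcl2l11 it was 0.34 on 1456005_a_at, 0.50 on 1435448_at and 0.52 on 1435449_at. It was -0.15 for Bad 1416582_a_at, 0.20 for Bbc3 1423315_at and 0.73 for Bid 1447873_x_at. No group had enough arrays to look for a single array that stands apart.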

How the results depend on the processing

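The 10 BCL2 family calls between LSK and MP all passed with limma after quantile normalization and after cyclic loess. They also passed without a filter, with a 25th percentile filter and without a trend. All 10 had the same direction in each pool alone (10 to 10), which is no separate check, since these pools gave the calls. Without a filter and with the 25th percentile filter 12 probe sets passed, the added ones being of Pmaip1 and Bcl2l11. The pairing by pool mattered: with no replicate block 0 of 22 passed with limma, and the counts of the other BCL2 family, apoptosome, death receptor and regulator lists became 0, 0, 0 and 3. When 2-fold was also required, 0 of the 22 passed. At 1.5-fold, 1 probe set was past the fold between genotypes in LSK and 2 in the difference of differences. After quantile normalization, 2 uncalled differences changed sign, Bcl2 1422938_at to -0.050 and Bbc3 1423315_at to -0.068. The share of all passing probe sets that rose in LSK was 67.7%, but 53.7% after quantile normalization, while the family kept 8 that rose and 2 that fell. Signal near background limits Pmaip1 and the other dim probe sets.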

Other observations

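Bcl2a1, a prosurvival gene present in several copies in the mouse, was read by 3 probe sets that name several of its copies, so its values belong to no single gene. The 1 past the filter, 1419004_s_at, had log2 intensities of 8.24 in Smo-deficient LSK and 7.97 in WT LSK, against 7.98 in Smo-deficient MP and 8.18 in WT MP, and did not pass between LSK and MP (0.03, limma adjusted p = 0.916). The Xiap probe set 1456088_at, which had the largest LSK minus MP difference among the Xiap probe sets at 1.45, was also 2-fold lower in Smo-deficient MP than in WT MP (-1.03) and differed by 0.19 in LSK, while Xiap 1437533_at differed by 0.16 in MP.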
